A study of Drosophila melanogaster with 12 samples.

Results

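The regions described here lie in the parts of the Drosophila melanogaster genome that are rich in heterochromatin: all of chromosome 4, all of the Y chromosome and the pericentric ends of 4 chromosome arms. They were chosen by position alone. A region was taken if it lay on chromosome 4 or Y, if it started at or after position 22000000 of 2L, 22900000 of 3L or 21500000 of X, or if it ended at or before position 4200000 of 3R, in coordinates that fit Release 6. This gave 774 of the 6353 deposited regions, 208 of 2906 in the table labelled gut and 566 of 3447 in that labelled fat body. The remaining regions on placed chromosomes, 1508 labelled fat body and 2108 labelled gut, served for comparison. The pericentric end of 2R is not part of this choice.

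ATAC-seq measured how open the DNA was, through the cuts that a Tn5 transposase makes while it attaches sequencing adapters. All flies were mated adult females of the genotype S106_UASfoxo, in which S106 is a GeneSwitch driver that works in gut and fat body and is turned on by RU486, and UAS-foxo encodes the forkhead factor downstream of insulin signalling. Switched flies ate 200 µM RU486 for 21 days and then control food for 7 days, while control flies carried the same transgenes and are labelled RU486-. There were 3 libraries per group in each tissue, and the labels do not say how many animals a library holds or whether libraries came from separate cultures, so p-values measure only the spread between these libraries. Only switched flies ate RU486, so an effect of the drug and of foxo cannot be told apart, nor can fewer cells of a type and fewer reads per cell.

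Heterochromatin is the compact, repeat-rich portion of the genome, bound by HP1 proteins on histone H3 methylated at lysine 9. In the fly it fills the pericentric DNA and the Y chromosome. The small chromosome 4 is packaged largely as heterochromatin and yet carries many active genes. The Y chromosome holds a small number of single-copy genes that act in the male germ line, and females carry no Y chromosome. Pericentric DNA also holds essential genes, often with very large introns, and piRNA clusters such as flamenco, whose transcripts keep retrotransposons silent in the ovary.

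The tissue labels went against the markers. Regions of the table labelled fat body lay over or near 2 of 12 fat body marker genes and 6 of 12 gut marker genes. Regions of the gut-labelled table lay over or near 6 of 12 fat body markers and 0 of 12 gut markers. The tables are therefore called by their labels only. Testis markers had a region for 0 of 5 genes in each table.

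Depth differed widely. Libraries labelled fat body held 970698, 977245 and 811020 counts in switched flies, against 1186153, 1136557 and 1053117 in control flies. Libraries labelled gut held 99191, 709659 and 577977 counts in switched flies, against 111244, 654180 and 519099 in control flies. Mitochondrial regions took 75.8% to 88.6% of the counts labelled fat body and 69.2% to 87.6% of those labelled gut. Counts on placed nuclear chromosomes, the denominator for shares of placed counts, came to 142273, 106173 and 155592 in switched and 85187, 86058 and 110334 in control libraries labelled fat body. Labelled gut, they came to 16901, 133466 and 68258 in switched and 25115, 95819 and 110687 in control libraries. The 2 gut libraries numbered 1 were thus the shallowest of the series.

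Most heterochromatin-rich regions were read thinly and away from genes. Among regions labelled fat body 161 of 566 (28.5%) overlapped a protein-coding gene, against 72.0% of the other placed regions. The table labelled gut gave 63 of 208 (30.3%) against 79.8%. Gene ends, meaning either end of a gene within 500 bp of the region's midpoint, took 2 of 566 (0.353%) against 18.7% in the table labelled fat body. Labelled gut, they took 24 of 208 (11.5%) against 47.4%. These shares are descriptions of position and were not tested. Moving the heterochromatin-rich regions by 5000 or 10000 bp to either side placed 1.24% to 1.94% of those labelled fat body and 1.92% to 3.85% of those labelled gut at a gene end. The deposited position thus hit gene ends more often than the moved ones in the table labelled gut, and less often in the table labelled fat body.

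Depth per region was low as well. The median region held 21 counts over the 6 libraries labelled fat body, against 272 for the other placed regions, and 25 against 121 in the table labelled gut. Totals of at most 3 counts characterised 195 fat body regions (34.5%) and 52 gut regions (25.0%), whereas 12 and 5 regions reached 1000 counts. A single library supplied all reads of 209 regions (36.9%) labelled fat body, against 12.7% of the other placed regions, and of 59 regions (28.4%) labelled gut, against 2.75%. All 6 libraries had reads in 92 regions (16.3%) labelled fat body, against 34.9% elsewhere, and in 40 (19.2%) labelled gut, against 23.0%. Only 131 of 566 regions (23.1%) labelled fat body and 73 of 208 (35.1%) labelled gut passed the minimum count for testing, compared with 72.9% and 81.5% of the other placed regions. Regions that did not pass were compared by DESeq2 and by edgeR without a filter only. Of the 566 regions labelled fat body DESeq2 gave an adjusted p to 230, so it could call no others.

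**Figure D1:**
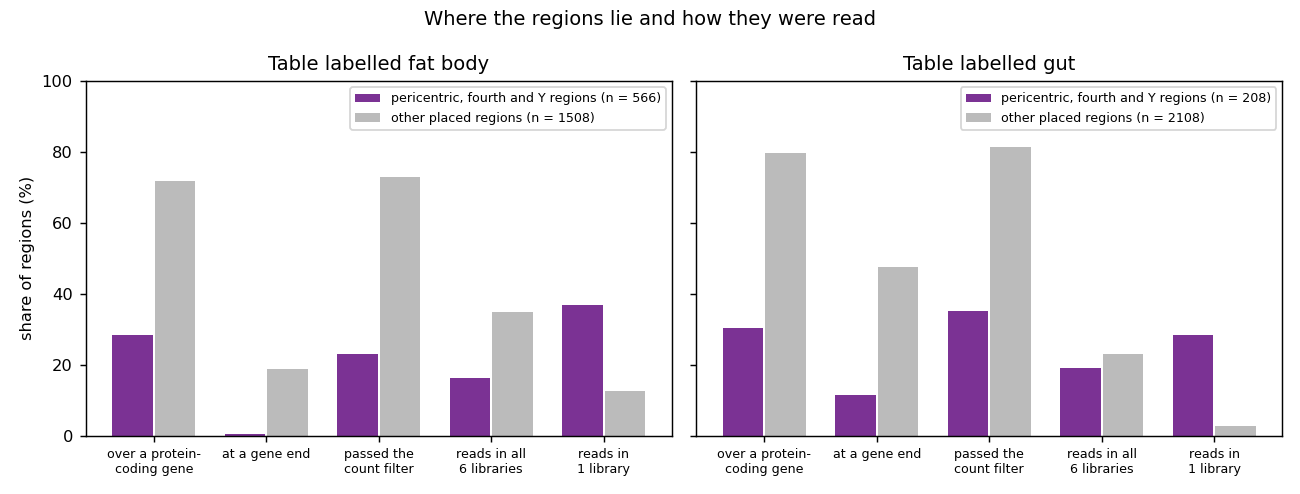
Share of regions, in percent, that overlap a protein-coding gene, lie at a gene end, passed the count filter, or had reads in all 6 libraries or in 1 library. Purple bars stand for heterochromatin-rich regions and grey bars for the other placed regions. In both tables the purple bars are lower for the first 4 features and higher for reads in 1 library, 36.9% against 12.7% in the table labelled fat body and 28.4% against 2.75% in the table labelled gut.

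The classes differed in these features. Chromosome 4 had 17 regions labelled gut, of which 16 overlapped a gene, 8 lay at a gene end and 16 passed the filter. Its 16 regions labelled fat body included 6 over genes and 0 at gene ends, and 9 passed. On the pericentric X, 1 of 123 regions labelled fat body overlapped a protein-coding gene. The Y chromosome had reads in all 6 libraries at 41.3% of its 46 regions labelled fat body and 41.7% of its 24 regions labelled gut. Pericentric 3L and 3R held most of the regions labelled fat body, 168 and 169, but passed the filter at 28 and 37 of them.

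The same places recurred in both tables. Of the 566 regions labelled fat body 114 (20.1%) overlapped a heterochromatin-rich region labelled gut, and of the 208 labelled gut 109 (52.4%) overlapped 1 labelled fat body. Among the other placed regions the shares were 20.6% and 14.5%. Regions found in both tables held 80.8% of the counts in heterochromatin-rich regions labelled fat body and 61.6% of those labelled gut. They formed 117 overlapping pairs, of which 27 were tested in both tables. Switched and control libraries stood fully apart in both tables for 0 of the 117 pairs. Over all tested regions, switched libraries stood fully above at 10.7% and below at 5.50% labelled fat body, and at 3.65% and 7.15% labelled gut. With such shares and thin reads, 0 pairs apart in both tables is a description only.

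A small number of places carried the signal. In the table labelled fat body 4 regions, 1 each on Y, 2L, 3R and X, held 61.6% of all counts in heterochromatin-rich regions. Their part was 65.4%, 66.3% and 43.2% in switched libraries and 62.6%, 68.2% and 56.6% in control libraries. In the table labelled gut the most read region of each of the same 4 chromosomes held 35.9% together, and that of X lay at another place. These regions are given with their class.

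The share of placed counts in heterochromatin-rich regions was the first comparison of switched with control flies. Labelled fat body, it was 30.8%, 29.4% and 12.6% in switched libraries, against 31.4%, 31.8% and 29.8% in control libraries. Switched replicate 3 stood far below the other 5 libraries, and the groups overlapped. The means were 24.3% ± 10.2 in switched and 31.0% ± 1.04 in control libraries (SD, n = 3 each), a difference of -6.74 percentage points. An exact two-sided permutation test over libraries gave p = 0.2, and 0.8 after Benjamini-Hochberg adjustment over the 8 shares tested. With 3 libraries against 3 this test cannot go below 0.1. Without switched replicate 3 the difference was -0.893 points (exact permutation p = 0.4).

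Labelled gut, the share was 15.2%, 4.60% and 6.99% in switched libraries, against 16.7%, 4.42% and 7.01% in control libraries. The replicates numbered 1 were the highest of both groups, and numbers 2 and 3 lay close together across groups. Means were 8.93% ± 5.56 and 9.38% ± 6.48 in switched and control libraries (SD, n = 3 each), with an exact permutation p of 0.9, adjusted 0.9. Counting error was small beside this spread. The exact 95% binomial interval of the highest value labelled fat body among switched libraries, for instance, ran from 30.6% to 31.1%, and such intervals cover counting error only. The switched minus control difference labelled fat body, less that labelled gut, was -6.29 points. An exact permutation test over 400 divisions of the libraries gave p = 0.455, adjusted 0.87 over 4 such tests.

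**Figure D2:**
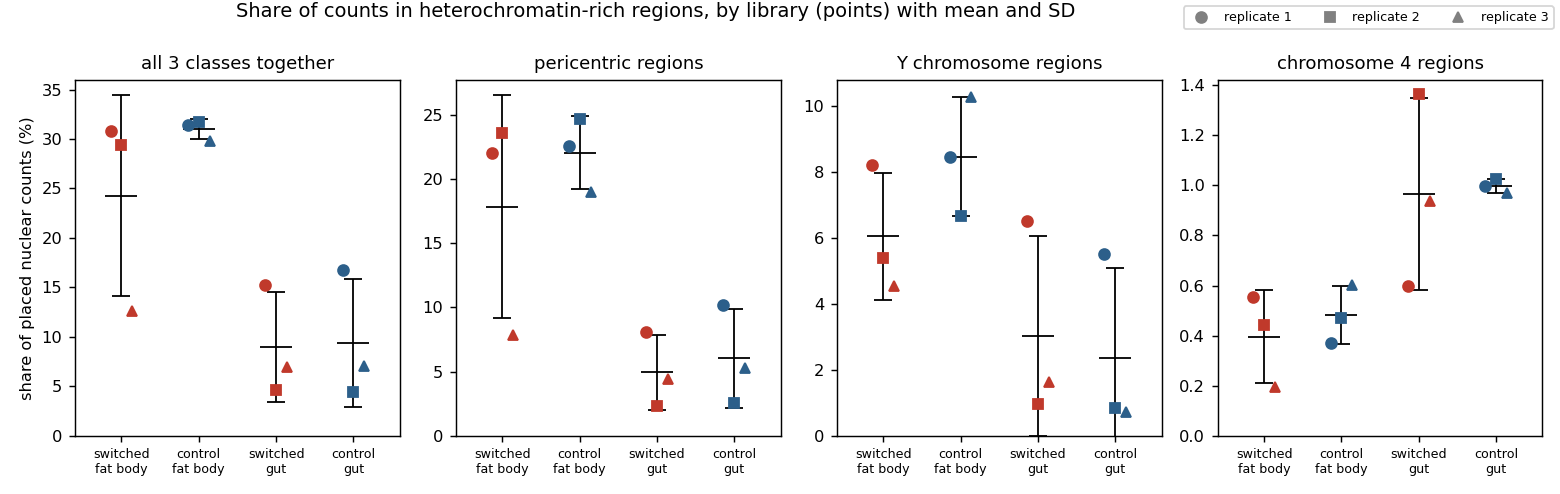
Share of placed nuclear counts, in percent, in all heterochromatin-rich regions and in each of the 3 classes, for every library. Points are libraries with the symbol giving the replicate number, bars give the mean and 1 SD, red is switched and blue is control. Switched fat body replicate 3, at 12.6%, lies below the other 5 fat body libraries, and both gut libraries numbered 1, at 15.2% and 16.7%, lie above the other gut libraries.

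Switched fat body replicate 3 and the gut libraries numbered 1 also stood apart in unplaced scaffolds, which hold much assembled heterochromatin. Scaffolds took 37.9%, 33.7% and 20.6% of nuclear counts in switched libraries labelled fat body, against 37.7%, 33.6% and 33.0% in control libraries. Labelled gut, they took 23.8%, 3.82% and 4.76% in switched libraries, against 26.8%, 3.16% and 3.06% in control libraries. The gut denominator is also moved by a single region on 2R, which held 12.2%, 12.2% and 10.3% of placed counts in switched libraries, against 5.38%, 5.04% and 30.3% in control libraries. With that region left out, the gut shares were 17.3%, 5.24% and 7.79% in switched libraries and 17.7%, 4.66% and 10.0% in control libraries. The part of scaffolds and depth in the differences was not tested.

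Region by region, no heterochromatin-rich region passed the main test, edgeR's quasi-likelihood test with a Benjamini-Hochberg adjusted p under 0.05. The calls were 0 of 131 labelled fat body and 0 of 73 labelled gut, where all tested regions gave 0 of 1674 (0%) and 0 of 1944 (0%). At an unadjusted p under 0.05, 4 regions labelled fat body were higher in switched flies (background 3.88%) and 1 was lower (background 0.896%). Labelled gut, 1 was higher (0.412%) and 2 were lower (1.18%). The fitted log2 fold changes were above 0 at 60 of 131 tested regions labelled fat body, against 57.3% of all tested regions, and at 25 of 73 labelled gut, against 40.9%. The median log2 fold change of the tested regions was -0.09 against 0.25 for all regions labelled fat body, and -0.32 against -0.23 labelled gut. The gut order of these 2 medians was not stable. It turned round with the replicate block (-0.05 for heterochromatin-rich against -0.40 for all regions), with library totals alone (-0.26 against -0.29), without control replicate 1 (0.15 against -0.30), without switched replicate 2 (-0.45 against -0.57) or 3 (-0.33 against -0.41), and without both libraries numbered 1 (0.12 against -0.08). Regions that passed the filter stand for themselves and not for all 774.

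All 3 switched libraries lay above all 3 control libraries, in normalised counts, at 9 tested regions labelled fat body (background 10.7%) and below them at 6 (5.50%). Labelled gut, this held for 3 above (3.65%) and 3 below (7.15%). DESeq2, the other count model, gave 7 calls at an adjusted p under 0.05 among the 546 fat body regions with a p-value. Only 230 of these regions received an adjusted p and could be called. The background was 2.32% of all regions with a p-value. Of the 7 calls, 4 were higher (background 1.99%) and 3 lower (0.331%). DESeq2 gave 0 calls among 206 regions labelled gut (background 0%). Without the count filter edgeR called 2 of 566 regions labelled fat body (background 0.551%) and 0 of 208 labelled gut (background 0%), the 2 being the leading X region over no gene and a lovit region. Tested regions with 0 reads in all control libraries numbered 2 labelled fat body (background 2.03%) and 0 labelled gut (0.154%). Those with 0 reads in all switched libraries numbered 1 labelled fat body (0.299%) and 1 labelled gut (0.669%). The counts of calls thus depended on the model, and each of the 7 regions is given with its counts in the paragraphs on its chromosome.

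**Figure D3:**
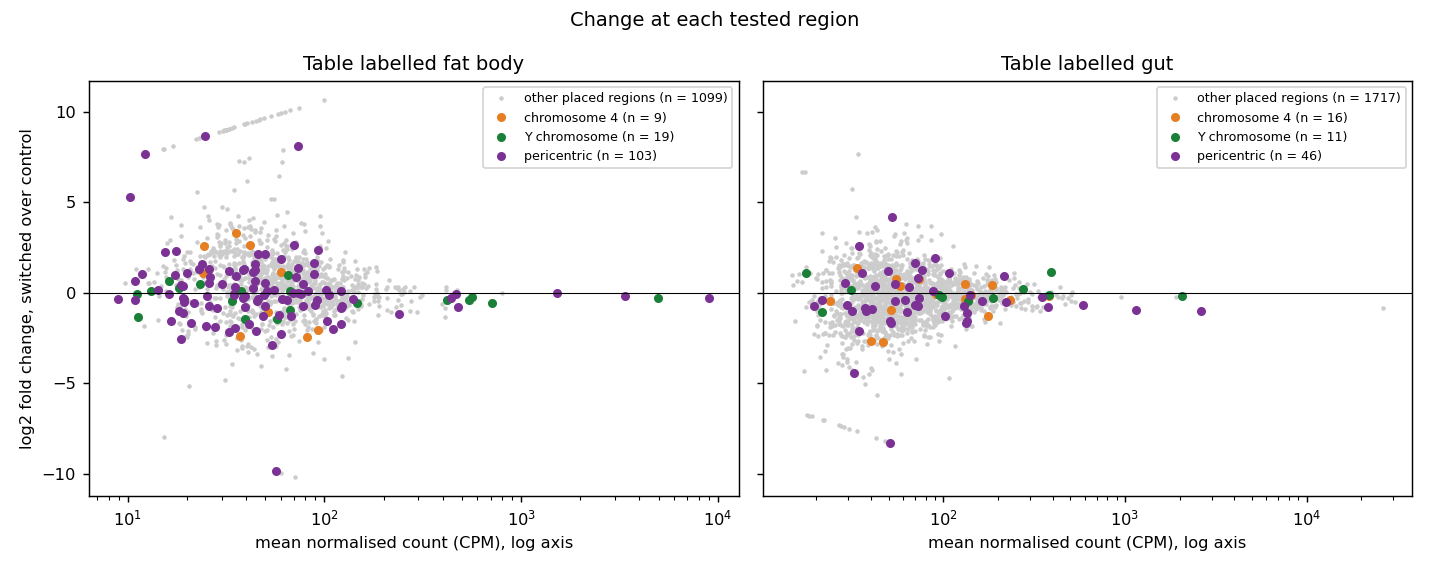
Log2 fold change, switched over control, on the vertical axis against mean normalised count (CPM, log axis) for every tested region of placed chromosomes. Grey points are other placed regions, and coloured points are chromosome 4 (n = 9 and 16), Y (n = 19 and 11) and pericentric regions (n = 103 and 46). The coloured points lie on both sides of 0, and in the table labelled fat body the most read of them, at the right, lie close to it. Labelled gut, the most read of them include values of -0.98 and -0.97 on X and -0.14 on Y.

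Chromosome 4 held at most 1.36% of placed counts in any library. Labelled fat body, its share was 0.555%, 0.441% and 0.193% in switched libraries, against 0.371%, 0.471% and 0.601% in control libraries (difference -0.0846 points, exact permutation p = 0.6, adjusted 0.8, n = 3 each). Labelled gut, it was 0.598%, 1.36% and 0.939% in switched libraries, against 0.999%, 1.02% and 0.970% in control libraries (difference -0.0311 points, exact permutation p = 0.7, adjusted 0.8, n = 3 each). The control libraries labelled gut thus lay within a narrow range, with switched libraries on both sides of it.

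Among 50 chromosome 4 genes listed, 46 matched the annotation. Labelled fat body, 5 of them had a region, and the 4 tested regions were split into 2 with a fold change above 0 and 2 below. Labelled gut, 9 genes had a region, with 5 of 13 tested regions above 0, 8 below and 0 called. Background shares of fold changes above 0 were 57.3% and 40.9%.

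The most read chromosome 4 region labelled gut, chr4:806951-807474, lay over Sox102F, which encodes an SOX family transcription factor. It held 32, 352 and 125 reads in switched libraries, against 33, 249 and 209 in control libraries, with a log2 fold change of -0.18 ± 0.86 (SE). The groups overlapped. Labelled fat body, the most read region was chr4:1279225-1279412, over no gene, with 103, 24 and 0 reads in switched libraries, against 130, 144 and 115 in control libraries. Every switched library lay below every control library there, yet the log2 fold change of -2.05 ± 1.49 (SE) did not pass the test. At chr4:593135-593227, also over no gene, the order was the reverse, with 33, 67 and 35 reads in switched libraries, against 0, 15 and 2 in control libraries.

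At ci, which encodes the transcription factor of the Hedgehog pathway, the gut region (also over the antisense gene asRNA:CR43957) had 0, 183 and 8 reads in switched libraries, against 29, 123 and 135 in control libraries. PlexB, a semaphorin receptor of axon guidance, had 0, 102 and 69 reads in switched libraries, against 21, 30 and 103 in control libraries. Neither set of counts separated the groups. The chromosome 4 gene apolpp encodes the precursor of the lipophorin apolipoproteins that carry lipid in the haemolymph. Its gut region chr4:1074310-1074428 held 0, 22 and 0 reads in switched libraries, against 13, 55 and 24 in control libraries (log2 fold change -2.72 ± 1.93 SE). Switched replicate 2 alone held the switched reads, and without it the fitted value was -7.73. Another region, chr4:1060943-1061050, over apolpp and its neighbour Zyx, held 8, 32 and 18 reads in switched libraries, against 7, 8 and 0 in control libraries. These 2 regions had opposite orders of the groups. The deepest of the 3 apolpp regions, chr4:1064648-1065009, held 18, 102 and 125 reads in switched libraries, against 20, 98 and 191 in control libraries, with overlap (log2 fold change -0.39 ± 0.95 SE). None of the 3 passed the test. Tdg, which encodes a thymine DNA glycosylase, had a gut region at chr4:554898-554991 with 0, 19 and 0 reads in switched libraries, against 21, 42 and 1 in control libraries (log2 fold change -2.67 ± 2.07 SE), and again switched replicate 2 held all switched reads (-7.46 without it).

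Reads mapped to the Y chromosome in every library, although all flies were labelled female. Labelled fat body, Y regions took 8.19%, 5.37% and 4.54% of placed counts in switched libraries, against 8.46%, 6.65% and 10.2% in control libraries. Means were 6.04% ± 1.92 in switched and 8.45% ± 1.80 in control libraries (SD, n = 3 each), a difference of -2.42 points with an exact permutation p of 0.2, adjusted 0.8. Labelled gut, the shares were 6.50%, 0.952% and 1.64% in switched libraries, against 5.51%, 0.840% and 0.725% in control libraries (difference 0.668 points, exact permutation p = 0.5, adjusted 0.8, n = 3 each). The gut libraries numbered 1 were again the highest of both groups. The tissue difference of the change was -3.08 points (exact permutation p = 0.26, adjusted 0.87, n = 3 libraries a group).

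The Y reads were gathered at a small number of places, 3 of which held 79.3% of the Y counts labelled fat body and 75.0% of those labelled gut. The first lay over Ppr-Y, a Y-linked gene expressed in testis, at chrY:1642106-1642196. It held 7645, 3862 and 3918 reads labelled fat body in switched libraries, against 4039, 3688 and 7495 in control libraries. As a share of placed counts this was 5.37%, 3.64% and 2.52% in switched libraries, against 4.74%, 4.29% and 6.79% in control libraries. The groups overlapped, and the log2 fold change was -0.31 ± 0.38 (SE). The overlapping gut region chrY:1642072-1642197 held 518, 679 and 670 reads in switched libraries, against 781, 429 and 452 in control libraries (log2 fold change -0.14 ± 0.79 SE). A neighbouring Ppr-Y region labelled gut, chrY:1642366-1642563, held 210, 165 and 52 reads in switched libraries, against 91, 60 and 32 in control libraries, also with overlap (log2 fold change 1.16 ± 0.99 SE).

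Regions over 3 more Y genes were read in all 12 libraries. The gene kl-5 encodes an axonemal dynein heavy chain needed for sperm motility, and its region chrY:124219-124420 held 827, 315 and 693 reads labelled fat body in switched libraries, against 630, 316 and 707 in control libraries. Its gut counterpart held 88, 199 and 100 reads in switched libraries, against 128, 124 and 81 in control libraries. At ORY, a Y gene expressed in testis, region chrY:3567108-3567182 held 661, 341 and 652 reads labelled fat body in switched libraries, against 580, 394 and 705 in control libraries. CCY, a testis-expressed Y gene with a coiled coil, had at chrY:3652865-3652966 counts of 579, 314 and 370 in switched libraries, against 478, 312 and 465 in control libraries labelled fat body. In the table labelled fat body the switched and control ranges overlapped at these 3 places, and the lowest raw count of each group fell in replicate 2. Raw counts follow depth. As shares of placed counts, all CCY regions together gave 0.425%, 0.305% and 0.245% in switched libraries, lowest in replicate 3. The gut counterpart of kl-5 had its highest switched raw count in replicate 2. Its shares of placed counts were 0.521%, 0.149% and 0.147% in switched libraries, highest in replicate 1.

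Among 13 listed Y genes 12 matched the annotation, and 7 had a region labelled fat body and 4 a region labelled gut. Of their tested regions 3 of 11 labelled fat body had fold changes above 0 and 8 below, with a median of -0.38, beside 57.3% above 0 and a median of 0.25 over all tested regions. Labelled gut, 3 were above 0 and 3 below, beside 40.9% above. None of the Y regions was called by edgeR or by DESeq2 in either table. Of the 19 tested labelled fat body and 11 labelled gut, 0 separated the groups (background 10.7% above and 5.50% below, and 3.65% and 7.15%). At an unadjusted edgeR p under 0.05 the number of Y regions was also 0. The background there was 3.88% higher and 0.896% lower labelled fat body, and 0.412% and 1.18% labelled gut. With so few regions tested, these counts are a description only.

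Pericentric regions took 22.1%, 23.6% and 7.83% of placed counts labelled fat body in switched libraries, against 22.6%, 24.7% and 19.0% in control libraries. Means were 17.8% ± 8.69 in switched and 22.1% ± 2.88 in control libraries (SD, n = 3 each), and the difference of -4.24 points gave an exact permutation p of 0.6, adjusted 0.8. Switched replicate 3 was the lowest, and without it the difference turned to 0.757 points. Labelled gut, shares were 8.11%, 2.29% and 4.41% in switched libraries, against 10.2%, 2.56% and 5.31% in control libraries (difference -1.09 points, exact permutation p = 0.6, adjusted 0.8, n = 3 each). Each numbered switched gut library lay below the control library of the same number, while the groups overlapped.

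On the pericentric X a region of 228 bp, chrX:22432988-22433215, held 77.4% of the X counts labelled fat body and was the most read of all heterochromatin-rich regions. It overlapped no protein-coding gene. It held 14414, 10048 and 2566 reads in switched libraries, against 8287, 10250 and 7090 in control libraries. As a share of placed counts this was 10.1%, 9.46% and 1.65% in switched libraries, against 9.73%, 11.9% and 6.43% in control libraries. Replicate 3 was the lowest of both groups, and the log2 fold change was -0.29 ± 0.59 (SE). Per kilobase, the mean normalised count was 35751 CPM per kb in switched and 43573 CPM per kb in control libraries, between the Ppr-Y region at 48921 and 60486 CPM per kb and the most read 3R region at 34767 and 38438 CPM per kb. The gut region at the same place, chrX:22432962-22433244, held 241, 263 and 196 reads in switched libraries, against 624, 265 and 179 in control libraries.

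The gut table had another leading X region, chrX:21836396-21838363, over no protein-coding gene. It held 210, 438 and 1232 reads in switched libraries, against 200, 762 and 3070 in control libraries (log2 fold change -0.98 ± 0.85 SE). Replicate 3 held the most in both groups, and the groups overlapped. The flamenco locus, lncRNA:flam, was read at chrX:21712148-21712533 with 111, 74 and 172 reads labelled fat body in switched libraries, against 70, 107 and 116 in control libraries. Its gut region chrX:21712293-21712590 held 8, 0 and 0 reads in switched libraries, against 3, 26 and 0 in control libraries (log2 fold change -0.71 ± 1.95 SE), and did not pass the test.

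Another X region had the lowest fold change of the tested heterochromatin-rich regions labelled fat body. At chrX:22083954-22084216, over no gene, the reads labelled fat body were 0, 0 and 0 in switched libraries, against 92, 87 and 125 in control libraries. Against a floor of 3 counts over the switched group, normalised counts were 130.1-fold lower in switched flies. That floor covers counting error only, so the true fold may be smaller. The region passed the count filter through the control libraries alone. DESeq2 called it with an adjusted p of 1.07e-05, and it remained called in 6 of 6 fits that left out 1 library each. These fits reuse the same counts and are not separate support. The main edgeR test did not call the region. The region chrX:22754313-22754383, over lncRNA:CR44997, held 18, 79 and 73 reads in switched libraries, against 194, 61 and 152 in control libraries, with overlap (log2 fold change -1.55 ± 1.02 SE).

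**Figure D4:**
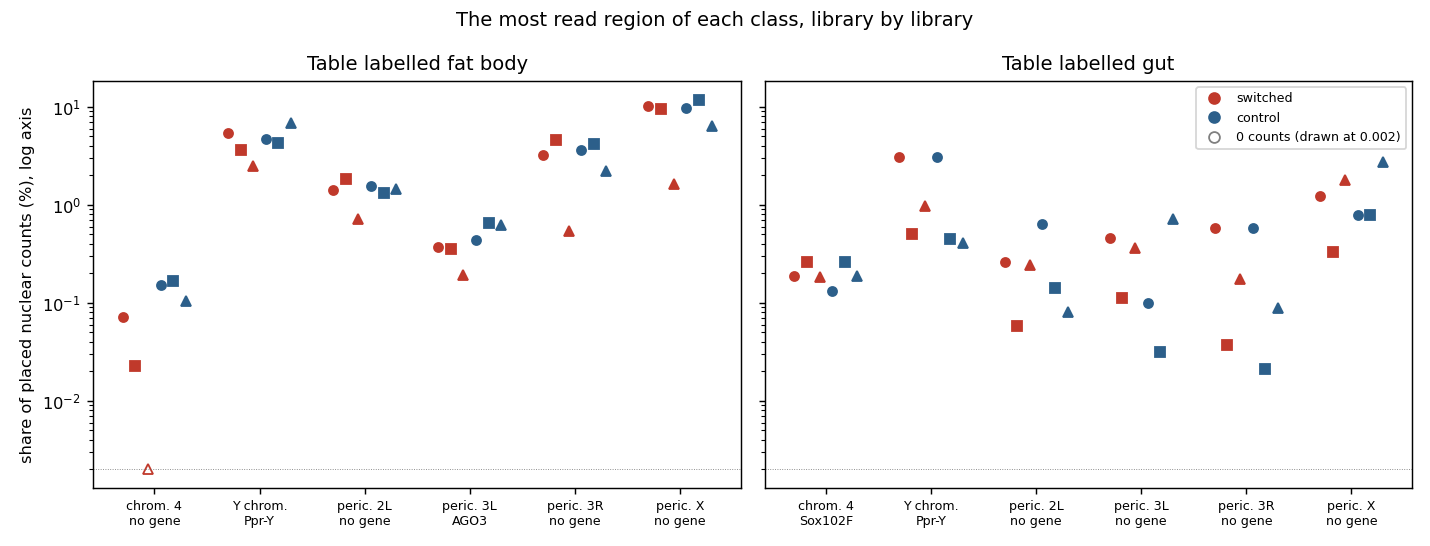
Share of placed nuclear counts, in percent on a log axis, at the most read region of each class in every library. Points are libraries, red is switched, blue is control, symbols give the replicate number, and the open symbol marks 0 counts. Switched replicate 3 is low at the X region, at 1.65%, and at the 3R region of the table labelled fat body, and the groups overlap at all places shown except the AGO3 and chromosome 4 regions labelled fat body.

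Pericentric 3L held the regions with the clearest counts in switched flies. The region chr3L:25443265-25443334 lay over lovit, which encodes a histamine transporter of photoreceptor synapses. It held 67, 240 and 157 reads labelled fat body in switched libraries, against 1, 0 and 0 in control libraries. The log2 fold change was 8.15 ± 1.72 (SE) with an adjusted p of 0.189 in edgeR's quasi-likelihood test and of 7.31e-05 in DESeq2. The edgeR value was the smallest of any heterochromatin-rich region and was tied with 3 others, the second lovit region, the Snap25 region and the X region with 0 reads in switched libraries. DESeq2 called it in 6 of 6 fits that left out 1 library. A second lovit region, chr3L:25521384-25521562, held 52, 12 and 24 reads in switched libraries, against 0, 0 and 0 in control libraries. This was 22.8-fold higher against the floor for 0 reads (DESeq2 adjusted p = 0.0232, kept in 1 of 6 such fits). Over all 16 lovit regions labelled fat body the counts were 200, 264 and 269 in switched libraries, against 63, 20 and 85 in control libraries. All switched sums lay above all control sums, a sum chosen after its values were seen and not tested. The sum includes the 2 regions above, the only 2 of the 16 that passed the count filter. It therefore does not show the same order at the remaining lovit regions.

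Snap25 encodes a SNARE protein of synaptic vesicle fusion. Its region chr3L:24265964-24266033 held 99, 20 and 61 reads labelled fat body in switched libraries, against 0, 0 and 0 in control libraries. Against the floor for 0 reads this was 46.7-fold higher. DESeq2 gave an adjusted p of 0.00115, and the call held in 5 of 6 fits without 1 library. All 7 Snap25 regions together held 306, 191 and 170 reads in switched libraries, against 45, 105 and 346 in control libraries, and the groups overlapped. The order seen at the single region did not hold for the sum.

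Summed raw reads of the muscle, ovary and haemocyte markers also lay higher in all switched libraries labelled fat body than in all control libraries. As shares of placed counts this order held for muscle and ovary. Haemocyte shares overlapped, at 0.0696%, 0.294% and 0.216% in switched libraries, against 0.0869%, 0% and 0.00997% in control libraries. At single regions, in normalised counts, such an order held at 10.7% of all tested regions labelled fat body, which is no background for sums. The muscle list had a region for 1 of 4 genes, sls, the titin-like sarcomere protein gene, and its 2 regions together held 210, 258 and 328 reads in switched libraries, against 74, 70 and 26 in control libraries. The 2 regions differed. At chr3L:2065568-2065678 the reads were 154, 240 and 202 in switched libraries, against 2, 4 and 23 in control libraries. At chr3L:2068185-2068260 the groups overlapped, with 56, 18 and 126 reads in switched libraries, against 72, 66 and 3 in control libraries. The ovary list had a region for 1 of 4 genes, zpg, a germ line gap junction gene, which shares it with Rexo5, with 140, 152 and 195 reads in switched libraries, against 19, 1 and 4 in control libraries. The haemocyte genes eater and srp, 2 of 4 listed, held 99, 312 and 336 reads in switched libraries, against 74, 0 and 11 in control libraries. Gut markers, 6 of 12, held 486, 273 and 452 reads in switched libraries, against 305, 116 and 600 in control libraries, and fat body markers, 2 of 12, held 267, 58 and 131 in switched libraries, against 130, 29 and 16 in control libraries. Testis and Malpighian tubule lists had 0 regions. No marker region passed the edgeR test, and the part of other cell types in the lovit and Snap25 counts was not tested.

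DESeq2 called 3 more regions in the table labelled fat body. At chr3L:26385546-26385671, over no gene, there were 83, 64 and 1 reads in switched libraries, against 0, 0 and 1 in control libraries (adjusted p = 0.0466, kept in 2 of 6 fits). Dbp80, an RNA helicase gene, had a region at chr3L:27393246-27393469 with 0, 0 and 0 reads in switched libraries, against 62, 0 and 152 in control libraries (adjusted p = 0.0386, kept in 1 of 6). A 3R region over no gene, chr3R:4074269-4074339, held 0, 0 and 0 reads in switched libraries, against 1, 73 and 100 in control libraries (adjusted p = 0.00895, kept in 5 of 6). In each of these 3, at least 1 library of the group with reads had at most 1 read.

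AGO3, the Argonaute protein of piRNA amplification, lay under the most read 3L region labelled fat body. That region, chr3L:23571677-23572912, held 527, 377 and 302 reads in switched libraries, against 376, 565 and 690 in control libraries. After normalisation every switched library lay below every control library, with a log2 fold change of -0.76 ± 0.54 (SE) that did not pass the test. The gut region at this place held 23, 146 and 67 reads in switched libraries, against 126, 23 and 4 in control libraries, with overlap. The most read 3L region labelled gut, chr3L:24463602-24464089, lay over no gene and held 77, 151 and 245 reads in switched libraries, against 25, 30 and 790 in control libraries, so that control replicate 3 alone held more than the other 5 libraries together.

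Of the remaining 3L regions among the leading ones, chr3L:23461454-23461555, over no gene, held 10, 28 and 28 reads labelled fat body in switched libraries, against 1, 0 and 0 in control libraries (log2 fold change 5.28 ± 1.60 SE). The region chr3L:24872584-24872720 held 53, 67 and 24 reads in switched libraries, against 72, 191 and 217 in control libraries. At chr3L:27109003-27109146 the reads were 155, 23 and 28 in switched libraries, against 132, 193 and 164 in control libraries. None of these 3 regions passed the edgeR test or was called by DESeq2, although the groups did not overlap in normalised counts at any of them.

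The gene CG40228 had in the gut-labelled table a region at chr3L:27083859-27083959 with 0, 0 and 0 reads in switched libraries, against 9, 55 and 57 in control libraries. This is 44.6-fold lower against the floor for 0 reads, with an adjusted p of 0.855 in edgeR and 0.193 in DESeq2. Without both gut libraries numbered 1 the DESeq2 adjusted p was 0.0166. The gene l(3)80Fg had a gut region at chr3L:25903376-25903524 with 1, 39 and 44 reads in switched libraries, against 7, 10 and 219 in control libraries (log2 fold change -1.68 ± 1.32 SE), where control replicate 3 stood apart. Labelled fat body, the 8 regions of the same gene together held 315, 203 and 526 reads in switched libraries, against 33, 52 and 158 in control libraries, with all switched libraries above all control libraries in raw counts. This sum over regions was chosen after its values were seen and was not tested.

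On pericentric 2L and 3R the most read regions had fold changes smaller than their errors. The 2L region chr2L:23332102-23332841 held 2038, 1943 and 1114 reads labelled fat body in switched libraries, against 1337, 1147 and 1595 in control libraries (log2 fold change 0.01 ± 0.46 SE). Its gut counterpart chr2L:23332091-23332816 held 44, 77 and 168 reads in switched libraries, against 161, 136 and 90 in control libraries (-0.77 ± 0.91 SE). The 3R region chr3R:4012106-4012197 held 4582, 4845 and 848 reads labelled fat body in switched libraries, against 3093, 3571 and 2429 in control libraries (-0.14 ± 0.65 SE). Replicate 3 was the lowest of both groups there, as at the X region. Labelled gut, chr3R:4012072-4012179 held 98, 50 and 119 reads in switched libraries, against 145, 20 and 97 in control libraries (-0.20 ± 1.02 SE).

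Smaller 2L regions differed more. At chr2L:23371756-23371916 the reads labelled fat body were 116, 114 and 189 in switched libraries, against 21, 24 and 0 in control libraries (log2 fold change 2.67 ± 1.51 SE), with no overlap of the groups. The gut region chr2L:22981690-22981797, within 1000 bp of cta, a G protein alpha subunit gene needed for gastrulation, held 22, 90 and 12 reads in switched libraries, against 0, 2 and 4 in control libraries. Its log2 fold change was 4.22 ± 1.89 (SE). At chr2L:23176118-23176305, over lncRNA:CR46450, the gut reads were 32, 105 and 30 in switched libraries, against 0, 18 and 30 in control libraries. The gut region chr2L:23512743-23513096 held 72, 102 and 102 reads in switched libraries, against 44, 43 and 40 in control libraries, a log2 fold change of 0.96 ± 0.96 (SE). In normalised counts the groups overlapped there. Its shares of placed counts were 0.426%, 0.0764% and 0.149% in switched libraries, against 0.175%, 0.0449% and 0.0361% in control libraries. None of these regions passed the test.

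**Figure D5:**
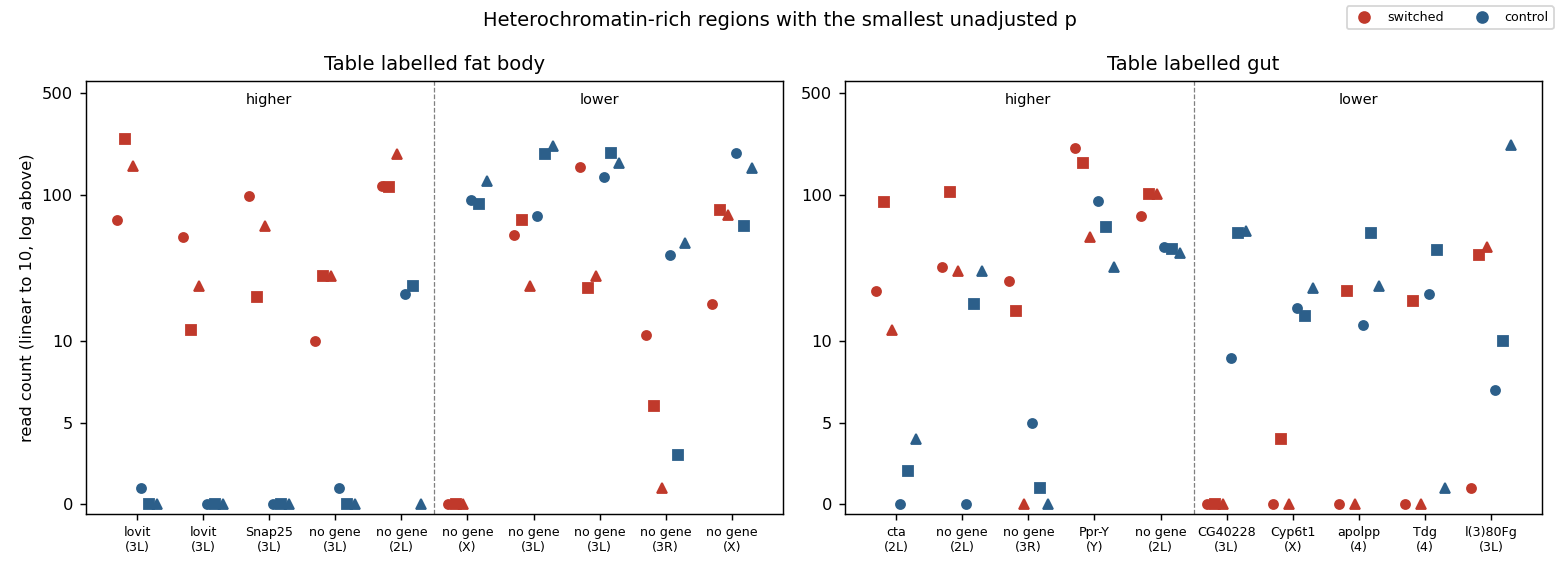
Read counts by library at the 5 higher and 5 lower heterochromatin-rich regions with the smallest unadjusted p in each table, on an axis that is linear to 10 and logarithmic above. Red is switched, blue is control, and symbols give the replicate number as in the plot of shares by library. At lovit, Snap25 and the leading X region the groups lie apart with 0 or 1 reads in 1 of them, and none of the 20 regions passed edgeR's test.

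The remaining leading regions were lower in switched libraries or thin. Near Cyp6t1, a cytochrome P450 gene, the gut region chrX:21520056-21520137 held 0, 4 and 0 reads in switched libraries, against 17, 15 and 23 in control libraries (log2 fold change -4.45 ± 2.10 SE, and -7.30 without switched replicate 2). At chr3R:239465-239549 the reads labelled fat body were 11, 6 and 1 in switched libraries, against 39, 3 and 47 in control libraries, and at chr3R:211851-211969 the gut reads were 26, 16 and 0 in switched libraries, against 5, 1 and 0 in control libraries. The gut value of 2.58 ± 2.18 (SE) at chr3R:211851-211969 was 0.51 without switched replicate 1 and 5.33 without control replicate 1. Both 3R regions overlapped between groups.

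Of 29 listed pericentric genes 28 matched the annotation. Labelled fat body, 13 had a region, and 13 of the 22 tested regions had fold changes above 0 and 9 below, beside 57.3% above 0 over all regions. The table labelled gut had a region for 9 of them, with 1 tested region above 0 and 4 below, beside 40.9%. That list includes genes of pericentric 2R, whose regions are not among the 774. Myo81F, a myosin gene, carried 53 regions labelled fat body, of which 8 were tested, and Pzl, a Piezo-like channel gene, carried 20. 

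The genes that encode heterochromatin proteins were followed as well, wherever they lie. Of 34 listed, 33 matched, and 2 had a region labelled fat body, Dp1 (a region it shares with imd) and Su(var)2-10, with 1 fold change above 0 and 1 below. Labelled gut, 9 genes had a region, with 4 fold changes above 0, 5 below and 0 calls. The widest difference among them was at Su(var)3-9, the histone H3 lysine 9 methyltransferase gene, whose gut region, which also lies over Set and the translation factor gene eIF2gamma, held 33, 25 and 40 reads in switched libraries, against 1, 1 and 13 in control libraries. Its log2 fold change was 3.01 ± 1.71 (SE) and did not pass the test, although all switched libraries lay above all control libraries.

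Values just inside and outside the position limits are given without a test. The last region inside the 3L limit labelled fat body, chr3L:23058074-23058144, held 0, 0 and 0 reads in switched libraries, against 0, 6 and 0 in control libraries, and the first outside, chr3L:22835543-22835655, held 116, 43 and 47 in switched libraries, against 39, 35 and 1 in control libraries. At the X limit the sums labelled fat body were 198 reads in switched and 136 in control libraries inside, and 181 in switched and 135 in control libraries outside. Labelled gut, the 2L sums were 90 reads in switched and 29 in control libraries inside, and 102 in switched and 15 in control libraries outside. At the 2L limit labelled fat body the sums were 91 reads in switched and 0 in control libraries inside, and 50 in switched and 1 in control libraries outside. The 3R limit had 9 reads in switched and 1 in control libraries inside, and 1 in switched and 0 in control libraries outside. The gut sums at 3L were 83 in switched and 98 in control libraries inside, and 86 in switched and 80 in control libraries outside. Those at X were 4 in switched and 55 in control libraries inside, and 40 in switched and 125 in control libraries outside. At 3R they were 84 in switched and 48 in control libraries inside, and 43 in switched and 56 in control libraries outside.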

How the data were processed

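The values are raw read counts, 1 table per tissue, as the authors deposited them. FastQC, Trimmomatic, MACS2, featureCounts and DESeq2 are named, without roles, per the submitters' processing notes. Not given in the sources used here are the aligner, the build and the handling of duplicates and of reads matching several places. The last can shift counts in repeat-rich DNA. Coordinates were taken as Release 6 because 44.2% of placed regions labelled gut lay at gene ends, against 18.7% to 21.5% after moves of 5000 or 10000 bp. The table labelled fat body gave little evidence of its own (13.7%, against 12.3% to 12.7%). Genes came from 13962 RefSeq protein-coding spans without exons, so exon, intron and UTR are not given.

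Region counts were fitted per table over all regions with edgeR 4.0.16 in R 4.3.3 (filterByExpr, minimum count 10, minimum total 15, TMM factors, quasi-likelihood test, Benjamini-Hochberg adjusted p under 0.05), with DESeq2 1.42.0 as an alternative. The common dispersion was 1.40 labelled fat body and 1.38 labelled gut. The SE is the log2 fold change over the square root of F. Bounds of folds against 0 use 3 counts over the group as the floor. Shares were compared with exact two-sided permutation tests.

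The members and gene lists were chosen with earlier results of these data known. Named regions were the most read of each class, the 5 higher and 5 lower with the smallest unadjusted p in each table and DESeq2 calls. Others were named after their values were seen.

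Same-numbered gut libraries deviated together (correlations 0.299, 0.218 and 0.113), over the bound of 0.1. The labels state no pairing, and the main tests used none. Pairs by number entered only the replicate block and the sign-flip test, both alternatives. Control replicate 3 correlated more with switched replicate 2 (0.128), and both libraries numbered 1 were shallow, so pairing is not established. Those labelled fat body did not (0.001, -0.028 and -0.066). Alternatives covered scaling, filtering, the block, the denominator, the position limits and single libraries.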

Additional observations from a re-analysis of the deposited data

How the results depend on the processing

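Depth limits these results: most heterochromatin-rich regions held too few reads to test, and the spread between libraries was wide. No region was called in the main test, so stability of calls cannot be read from it. Calls labelled fat body numbered 2 without a filter and 7 with DESeq2. DESeq2 gave 12 of 536, 11 of 532 and 14 of 535 without control replicates 1, 2 and 3. Over all regions with a p-value these fits called 139 of 3355, 143 of 3369 and 134 of 3329. Without switched replicates 1, 2 and 3 DESeq2 gave 6 of 506, 11 of 531 and 10 of 547. Those fits called 62 of 3256, 61 of 3349 and 69 of 3358 over all regions. Labelled gut, DESeq2 gave 1 of 178 without both libraries numbered 1, where all regions gave 3 of 2767. That fit was chosen after seeing the data, as were the DESeq2 fits without single libraries and the denominator without the 2R region. With the replicate block 0 regions were called in each table, and it changed no call. Its sign-flip p for shares cannot go below 0.25. Scaling by library totals moved the median log2 fold change labelled fat body to 0.94 for all regions and 0.53 for heterochromatin-rich ones.

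With all counts as the denominator, differences in share labelled fat body turned to 0.779 points over all classes, 0.0137 for chromosome 4, 0.157 for Y and 0.608 for pericentric regions, and labelled gut Y turned to -0.0145. The chromosome 4 difference turned to 0.0249 labelled fat body without its most read region, and to 0.0555 labelled gut with regions read in all 6 libraries. Without both gut libraries numbered 1 the gut differences were 0.0804 over all classes and 0.154 for chromosome 4. Leaving out 1 library gave -10.02 to -0.893 points over all classes labelled fat body, -0.164 to 0.0169 for chromosome 4, -3.49 to -1.52 for Y and -7.12 to 0.757 for pericentric regions. Labelled gut the ranges were -3.59 to 3.22, -0.230 to 0.154, -1.07 to 2.25 and -2.82 to 1.00 in the same order. The cause was not tested.

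Of 32 regions refitted, the 10 leading ones and the most read one of each class per table, 20 kept their direction in every alternative, and 366 of 396 alternatives kept it. Other regions in the text were not refitted this way. Library totals turned Ppr-Y labelled fat body to 0.28, the 3R region at 4012106 to 0.42 and the X region at 22432988 to 0.32. The 2L region at 23332102 turned to -0.0209 with TMM over placed regions and -0.0797 with the replicate block. Without 1 library the log2 fold change ran from -0.28 to 0.26 at that 2L region, -0.71 to 0.30 at 3R and -0.62 to 0.13 at X. Labelled gut, the replicate block turned Ppr-Y at 1642072 to 0.13, 3L at 24463602 to 0.75 and 3R at 4012072 to 0.26. Without both libraries numbered 1 these gut values turned to 0.52 at that Ppr-Y region, 0.49 at 3R and 0.19 at 2L 23332091. Without 1 library the gut ranges were -0.20 to 2.34 at Ppr-Y 1642366, -0.53 to 0.93 at Ppr-Y 1642072, -2.53 to 1.15 at l(3)80Fg, -0.65 to 0.16 at Sox102F, -1.34 to 0.14 at 2L 23332091, -1.30 to 2.20 at 3L 24463602, -0.82 to 1.14 at 3R 4012072 and -1.94 to 0.41 at X 21836396.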
